A study of Homo sapiens with 2 samples.

Results

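The genes of 8 transcription factors that set gut identity were examined for SOX9 binding in HT-29, a line derived from a human colorectal adenocarcinoma: the homeodomain genes CDX1 and CDX2, the nuclear receptor genes HNF4A and HNF4G, the zinc finger genes GATA4 and GATA6, and the forkhead genes FOXA1 and FOXA2. They were taken by name from 20163 protein-coding genes of the GENCODE annotation on hg19. For each gene, every SOX9 peak was collected whose summit fell within 1 kb of an annotated transcription start site (TSS), in the gene body or within 50 kb of it, which gave 22 of 17847 peaks. The study immunoprecipitated SOX9 from HT-29 cells with an antibody from Millipore (AB5535) and sequenced it beside input DNA of the same line, with 1 biological replicate of each. The labels name no treatment or genetic change for either library, so every value below sets the SOX9 ChIP against input chromatin. The methods name McCoy's 5A as the medium and the labels name DMEM.

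Each library held 12320108 aligned tags after the authors had thinned the input to match the ChIP. With 1 library per condition there was no replicate error and no test between conditions. The intervals given are exact 95% Poisson or binomial intervals that cover counting error only. A tag is 1 aligned read. The fold enrichment of a peak is the ratio that MACS reports against the level predicted from the nearby input. It is not the tag count of the peak divided by its input tags. Signal counts the tags that overlap a bin of 32 nt once each tag has been lengthened to 150 bp. The input level was uneven along the HT-29 genome: over 2712 autosomal windows of 1 Mb, the 10th and 90th percentiles lay at 0.57 and 1.44 times the median. RNA was not analysed here, so whether each factor is expressed in these cells was not measured.

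CDX2 and its paralog CDX1 specify intestinal against foregut identity, and CDX2 is a standard marker of colorectal epithelium. HNF4A and HNF4G bind DNA as dimers and maintain the enterocyte programme, while FOXA1 and FOXA2 open closed chromatin in endoderm and GATA4 and GATA6 act along the length of the gut, GATA4 mainly in its proximal part. SOX9 is an HMG-box factor of crypt progenitors and Paneth cells that binds DNA in the minor groove. It recognises a short consensus, CAAAG or CAATG preceded by a pair of A or T bases.

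SOX9 peaks lay within 1 kb of a TSS at 3 of the 8 genes, namely GATA6, FOXA1 and FOXA2, whereas 44.8% of all protein-coding genes had such a peak. The share among the gut lineage genes was thus near that among genes in general, and which of the 2 was higher depended on the setting. CDX1, CDX2, HNF4A, HNF4G and GATA4 had none. With a reach of 3 kb, CDX2 was added and the count was 4 of 8, beside 47.5% of all protein-coding genes. Within the wider windows, 7 of the 8 genes had at least 1 summit, beside 75.1% of all protein-coding genes. GATA6 had 6 summits, CDX2 had 5, HNF4A and FOXA1 had 4 each, HNF4G, GATA4 and FOXA2 had 1 each, and CDX1 had 0. The gene windows ran from 104.5 kb at FOXA2 to 258.9 kb at HNF4G. Per 100 kb, CDX2 held 4.61 summits, GATA6 4.51 and FOXA1 3.76, and 7.54%, 7.93% and 11.7% of all protein-coding genes were at least as dense. HNF4A held 2.26 per 100 kb, FOXA2 0.957, GATA4 0.546, HNF4G 0.386 and CDX1 0. The median over the 8 genes was 1.61 summits per 100 kb, which lies midway between FOXA2 and HNF4A. Over all protein-coding genes it was 0.969, and FOXA2, GATA4, HNF4G and CDX1 lay below that.

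**Figure D1:**
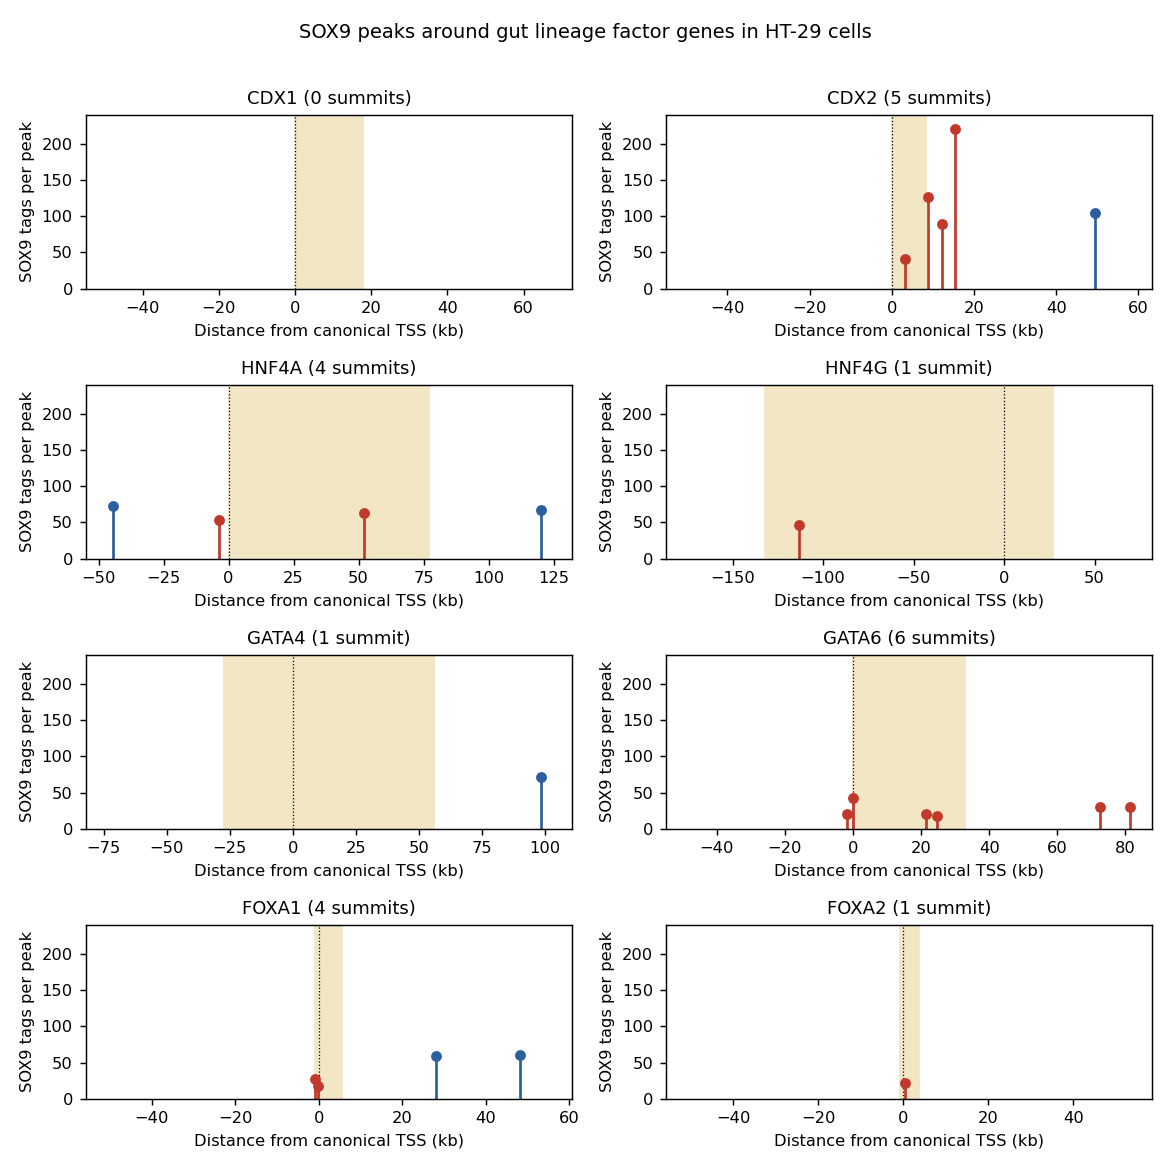
SOX9 peaks around each of the 8 genes: the horizontal axis gives the distance of each summit from the canonical start site in kb along the direction of transcription, and the vertical axis the SOX9 tags of the peak. Shading marks the gene body, red marks summits whose nearest protein-coding gene is the gene shown and blue marks summits nearest to another protein-coding gene; the 3 tallest red markers stand at CDX2, with 221, 127 and 89 tags, and CDX1 shows no summit.

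Not every summit in a window belonged to the gene by distance. The gut lineage gene was the nearest protein-coding gene for 16 of the 22 summits, and another gene was nearer for the other 6. Of those 6, 4 lay within 1 kb of the TSS of a neighbour: FITM2, which acts in lipid droplet formation, TTPAL, a lipid transfer protein gene, PDX1, the pancreatic and duodenal homeobox gene, and FDFT1, which encodes squalene synthase. Of the 22 summits, 5 lay within 1 kb of the start of a noncoding gene and of no coding one.

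GATA6, the GATA factor found throughout the gut epithelium, had the most summits of the 8 genes, and for all 6 it was the nearest protein-coding gene (GATA6, chr18:19749550-19782491, plus strand). Its promoter peak spanned chr18:19748926-19749810 with the summit 87 bp upstream of the canonical TSS and 50 bp upstream of a start of GATA6-AS1, the divergent antisense RNA. The peak held 43 SOX9 tags (95% interval 31.12 to 57.92) against 7 input tags, and the signal reached 15 in the ChIP and 4 in the input. Its tag ratio was 6.14 (95% interval 2.74 to 16.2) and its MACS fold enrichment 11.61. Peaks were called for such an excess over the input, so the ratio describes the peak and tests nothing. A second summit lay 1868 bp upstream of GATA6 and 60 bp inside GATA6-AS1, with 20 SOX9 tags against 1 input tag. Since both summits lay in GATA6-AS1, the data cannot assign them to one of the divergent genes.

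The remaining GATA6 summits were distal. A pair lay in introns, with 21 and 17 SOX9 tags against 3 input tags each. Another pair lay 39697 and 48353 bp past the end of the gene, with 30 SOX9 tags each against 9 and 5 input tags. The last of these had the highest fold enrichment at GATA6, 23.75, with a signal of 19 in the ChIP and 2 in the input. All 6 GATA6 peaks were small: they held 26.8 tags on average, and each had fewer tags than the median of 45 over all peaks. The sequences around 2 GATA6 summits are shown because each carries a searched motif close to the point of highest signal. They are hg19 plus strand, read 5′ to 3′ from the reference, with the motifs in capitals: CCAAT, the recognition element of NF-Y, at chr18:19749363-19749549, and a SOX9 consensus at chr18:19830744-19830944.
GATA6 promoter summit: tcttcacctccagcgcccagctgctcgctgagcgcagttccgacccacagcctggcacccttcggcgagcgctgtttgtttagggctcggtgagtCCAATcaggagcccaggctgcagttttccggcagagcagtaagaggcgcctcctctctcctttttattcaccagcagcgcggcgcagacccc
GATA6 far downstream summit: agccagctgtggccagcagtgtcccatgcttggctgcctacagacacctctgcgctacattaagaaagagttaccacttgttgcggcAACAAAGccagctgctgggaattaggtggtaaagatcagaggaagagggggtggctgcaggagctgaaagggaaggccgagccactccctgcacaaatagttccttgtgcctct
In the promoter the CCAAT lay 3 bp from the summit, and in the far downstream peak the consensus lay 10 bp from it.

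FOXA1, a pioneer factor of endoderm, had 2 promoter peaks (FOXA1, chr14:38058757-38065264, minus strand). The first, chr14:38065106-38065581, had its summit 180 bp upstream of the outermost FOXA1 TSS and 990 bp upstream of the canonical one, inside the annotated extent of TTC6. It held 27 SOX9 tags (95% interval 17.79 to 39.28), with a signal of 13 in the ChIP and 3 in the input. A second peak, chr14:38064400-38064913, lay 178 bp upstream of the canonical TSS, in an intron of the longer transcripts, and held 17 tags (95% interval 9.903 to 27.22) with signals of 11 and 3. This inner FOXA1 peak was the least certain of the 22: its MACS score (−log10 p times 10) was 70.05, just past the p cut-off of 1e-07, and its FDR of 0.06% was the highest. FOXA2, its paralog, had 1 peak in its window (FOXA2, chr20:22561636-22566093, minus strand). This peak, chr20:22564630-22565285, had its summit 312 bp downstream of the canonical TSS, and held 22 SOX9 tags (95% interval 13.79 to 33.31), with a signal of 10 in the ChIP and 1 in the input. Sequences at the 3 forkhead gene summits are shown because they differ in motif content. They are hg19 minus strand, chr14:38065344-38065544, chr14:38064532-38064732 and chr20:22564798-22564898, with motifs in capitals.
FOXA1 outer promoter summit: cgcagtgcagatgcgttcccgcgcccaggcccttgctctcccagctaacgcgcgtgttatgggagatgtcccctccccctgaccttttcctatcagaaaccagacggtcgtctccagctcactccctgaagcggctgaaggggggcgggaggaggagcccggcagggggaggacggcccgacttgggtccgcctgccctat
FOXA1 inner promoter summit: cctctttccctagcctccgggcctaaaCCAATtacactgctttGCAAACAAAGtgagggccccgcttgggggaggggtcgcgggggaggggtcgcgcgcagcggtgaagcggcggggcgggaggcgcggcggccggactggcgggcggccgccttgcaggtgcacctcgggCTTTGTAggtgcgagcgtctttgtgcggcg
FOXA2 summit: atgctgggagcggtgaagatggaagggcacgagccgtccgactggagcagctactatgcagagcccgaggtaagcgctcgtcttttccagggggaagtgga
The inner FOXA1 peak held CCAAT 71 bp from its summit, a SOX9 consensus 51 bp from it on the same side that shares bases with a FOXA core, read as TGTTTGC on the other strand, and another consensus 74 bp away on the other side. No searched motif was found within 100 bp of the other 2 summits. The FOXA2 stretch starts at its summit, on the first base of an annotated start codon, and the untranslated bases before it were left out.

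FOXA1 had 2 more summits in its window, 22375 and 42487 bp past the gene end and inside MIPOL1, which was the nearest protein-coding gene to both. They held 59 and 60 SOX9 tags, more than either FOXA1 promoter peak. The first of them lay 82 bp upstream of the start of a noncoding transcript (ENSG00000259087).

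Among peaks at gene starts, those of the gut lineage genes were low in tags. The 4 promoter peaks of GATA6, FOXA1 and FOXA2 had a median of 24.5 tags and a highest value of 43, whereas the 8655 peaks with a summit within 1 kb of a protein-coding TSS had a median of 56 (quartiles 38 and 81). The GATA6 promoter peak had fewer tags than 66.4% of these, the FOXA1 peaks fewer than 89.8% and 98%, and the FOXA2 peak fewer than 94.9%. Fold enrichments of 11.61, 13.51, 10.76 and 13.39 in the same order were each above the median of 10.0 over peaks at gene starts.

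Tags around the start sites were also counted without use of the peak calls. Within 1 kb of the canonical TSS, GATA6 had 57 SOX9 and 18 input tags, FOXA1 58 and 18, and FOXA2 53 and 11. Ratios of SOX9 to input tags were 3.16 (95% interval 1.84 to 5.72) at GATA6, 3.19 (1.87 to 5.81) at FOXA1 and 4.78 (2.49 to 10.2) at FOXA2. The 3 intervals overlapped, and all included the median of 2.78 over 8938 genes with a promoter peak. FOXA2 had the highest ratio and the fewest SOX9 tags of the 3, with the lowest input.

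At the genes without a promoter peak the ratios were lower. Peaks were called on these same tags for an excess over the input, so this difference follows from the calls and tests nothing. CDX2 had 69 SOX9 tags, more than any other of the 8 genes, but also 38 input tags, a ratio of 1.83 (95% interval 1.2 to 2.77). HNF4A had 46 and 27 (ratio 1.68, 1.04 to 2.85), CDX1 18 and 12 (1.54, 0.684 to 3.41), and HNF4G 11 and 15 (0.733, 0.305 to 1.71). The CDX2 and HNF4A intervals lay above 1, and those of CDX1 and of the canonical HNF4G start included it. The first group of HNF4G starts, described below, had a ratio of 1.94 (1.27 to 3.01). Such ratios were summarised over 17521 of the 19881 protein-coding genes with a canonical TSS. Their median was 2.06, so a ratio above 1 was common at start sites. Among them, the median over 8583 genes without a promoter peak was 1.27 (quartiles 0.789 and 1.78). The CDX2 ratio exceeded the upper quartile of these by a small margin, and its interval included their median and overlapped those of GATA6, FOXA1 and FOXA2. The HNF4A ratio lay between the quartiles of the genes without a promoter peak. At GATA4 the ratio could not be formed, with 2 SOX9 tags and 0 input tags.

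CDX2, the master regulator of intestinal fate, had the most SOX9 tags in peaks of the 8 genes, mostly past the end of the gene and none at its start (CDX2, chr13:28535055-28543452, minus strand). In the order of transcription, peak 1 had its summit in an intron 3200 bp downstream of the canonical TSS and 1210 bp from the nearest annotated one, and it held 41 SOX9 tags (95% interval 29.42 to 55.62). Peak 2 lay 479 bp past the gene end with 127 tags (105.9 to 151.1), peak 3 lay 3884 bp past it with 89 (71.47 to 109.5), and peak 4 lay 6870 bp past it with 221 (192.8 to 252.1). The signal at these summits reached 21, 29, 38 and 36 in the ChIP, against 7, 7, 7 and 8 in the input.

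The 4 summits spanned 12067 bp and together held 478 tags, 36.7% of the 1303 tags in all 22 peaks. Of all SOX9 summits, 0.706% were followed by at least as many others within that distance. The distance and the number were taken from these 4 summits themselves, so the share describes the group and tests nothing. CDX2 peak 4 was the broadest of the 22 peaks, 2413 bp with 3 local maxima (chr13:28526737-28529149), and only 1.34% of all peaks held more tags. Its summit lay 522 bp inside LINC00543, a long noncoding RNA gene. In the signal maps the 4 intervals held 41, 130, 89 and 220 SOX9 tags and 13, 32, 23 and 57 input tags, so that the tag ratios were 3.15 (95% interval 1.66 to 6.41), 4.06 (2.74 to 6.18), 3.87 (2.42 to 6.42) and 3.86 (2.87 to 5.26). The intervals of the 4 ratios overlapped.

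The tag counts at CDX2 stood on a high input. The 1 Mb around CDX2 had 2.48 times the median input of autosomal windows, and only 0.996% of the windows were higher. Fold enrichments, which take the local input into account, were 8.48, 8.7, 11.8 and 8.57 for the 4 peaks, 1 above and 3 below the median of 10.39 over all peaks. How much of the CDX2 tag count, or of the number of summits called there, goes with the regional input was not tested. Peak 5 in the CDX2 window, 40978 bp past the gene, lay 60 bp upstream of PDX1 and held 105 tags at a fold enrichment of 12.83.

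The sequences around the summits of CDX2 peaks 1, 3 and 4 are shown because peak 1 holds the most SOX9 consensus matches of the 22, and peaks 3 and 4 reach a similar signal with and without searched motifs. They are hg19 minus strand, chr13:28540152-28540352, chr13:28531071-28531271 and chr13:28528085-28528285, with motifs in capitals.
CDX2 peak 1, intronic: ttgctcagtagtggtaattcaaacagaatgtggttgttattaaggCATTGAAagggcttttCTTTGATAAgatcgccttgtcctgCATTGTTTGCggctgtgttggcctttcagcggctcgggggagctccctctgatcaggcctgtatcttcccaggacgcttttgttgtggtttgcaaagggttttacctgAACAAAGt
CDX2 peak 3: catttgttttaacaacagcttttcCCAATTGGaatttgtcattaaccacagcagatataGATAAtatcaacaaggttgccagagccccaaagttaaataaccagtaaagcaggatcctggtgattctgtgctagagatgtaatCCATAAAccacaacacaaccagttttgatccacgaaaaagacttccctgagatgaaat
CDX2 peak 4: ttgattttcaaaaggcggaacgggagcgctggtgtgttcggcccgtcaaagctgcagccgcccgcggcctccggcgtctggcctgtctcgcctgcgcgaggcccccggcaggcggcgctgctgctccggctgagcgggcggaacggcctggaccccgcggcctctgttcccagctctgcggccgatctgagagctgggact
The intronic site had 4 matches to the SOX9 consensus, 12, 36, 52 and 96 bp from the summit. The one 12 bp away overlapped a FOXA core, and the one 36 bp away overlapped GATAA. The site of peak 3 held CCAAT on both strands, GATAA, and a CDX core (TTTATGG on the other strand) 46 bp from the summit. The site of peak 4, with the most tags, was 71.1% GC and held no searched motif within 100 bp of its summit, and that of peak 2, 68.7% GC, held none either.

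CDX1, the other caudal homeobox gene of the intestine, had no summit in 117.8 kb (CDX1, chr5:149546341-149564121, plus strand), and the highest signal within 1 kb of its TSS was 5 in the ChIP and 3 in the input. Its regional input was 1.05 times the median of autosomal windows, while the mean input signal within 1 kb of the CDX1 TSS was 0.952, beside a median of 1.35 over protein-coding genes. Their part in the absence of a peak was not tested. The CDX paralogs stood at opposite ends of the 8 genes, with 583 tags in the peaks of the CDX2 window and 0 at CDX1. Of the 583 tags, 478 lay in the 4 peaks nearest to CDX2 and the rest in the PDX1 promoter peak. The regional input was 2.48 times the median of autosomal windows at CDX2, beside 1.05 at CDX1.

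HNF4A and HNF4G, nuclear receptors of the enterocyte programme, each have distinct groups of start sites, which were measured separately. HNF4A (chr20:42984339-43061485, plus strand) has an upstream group, known as P2, and a group 45.5 kb downstream, known as P1. Within 1 kb of the P2 starts there were 46 SOX9 and 28 input tags, a ratio of 1.64 (95% interval 1.01 to 2.73), and at P1 there were 34 and 27, a ratio of 1.26 (0.737 to 2.17). The intervals overlapped, and neither start group held a summit. The nearest summit to P2, chr20:42980592-42981369, lay 3502 bp upstream of it and 95 bp upstream of a start of R3HDML-AS1, a noncoding gene. It held 54 SOX9 tags (95% interval 40.57 to 70.46) at a fold enrichment of 17.53, with a signal of 28 in the ChIP and 4 in the input. This was the most enriched peak at either HNF4 gene, and its sequence (hg19 plus strand, chr20:42980737-42980937) is shown because it combines CCAAT with a SOX9 consensus, in capitals.
HNF4A upstream summit: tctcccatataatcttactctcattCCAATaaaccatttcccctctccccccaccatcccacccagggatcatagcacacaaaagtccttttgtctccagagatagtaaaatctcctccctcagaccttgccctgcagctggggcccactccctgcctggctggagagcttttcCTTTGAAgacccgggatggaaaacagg
The CCAAT lay 73 bp and the consensus 77 bp from the summit, on opposite sides.

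A further HNF4A peak, chr20:43035467-43036721, lay inside the gene 6343 bp downstream of the nearest TSS, in an exon that ends some short transcripts, and 376 bp from MIR3646. It held 63 SOX9 tags but also 28 input tags (ratio 2.21, 95% interval 1.4 to 3.59), the lowest ratio of the 22 peaks. The other HNF4A window summits, with 73 and 67 tags, lay 92 bp upstream of FITM2 and 12 bp upstream of TTPAL. The HNF4A region had 1.59 times the median input.

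HNF4G (chr8:76320149-76479069, plus strand) had 1 summit, in an intron 18618 bp downstream of its first start group, with 46 SOX9 tags (95% interval 33.68 to 61.36). Its fold enrichment of 6.77 was the lowest of the 22 peaks, and the signal was 19 in the ChIP and 6 in the input. HNF4G also has separate start groups. The first group had 68 SOX9 and 35 input tags, a ratio of 1.94 (95% interval 1.27 to 3.01), and the group 132 kb downstream, which holds the canonical TSS, had 13 and 16, a ratio of 0.812 (0.36 to 1.8), and the intervals overlapped. Per kb the first HNF4G group had 32 SOX9 tags, the most of all 13 start groups ahead of CDX2 with 29.3, and more than those of GATA6 with 20.9, FOXA1 with 22.6 and FOXA2 with 21.2 where peaks were called. The intervals of these 5 groups overlapped. Its input of 16.5 tags per kb was also the highest of the 13, beside 16 at CDX2.

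**Figure D2:**
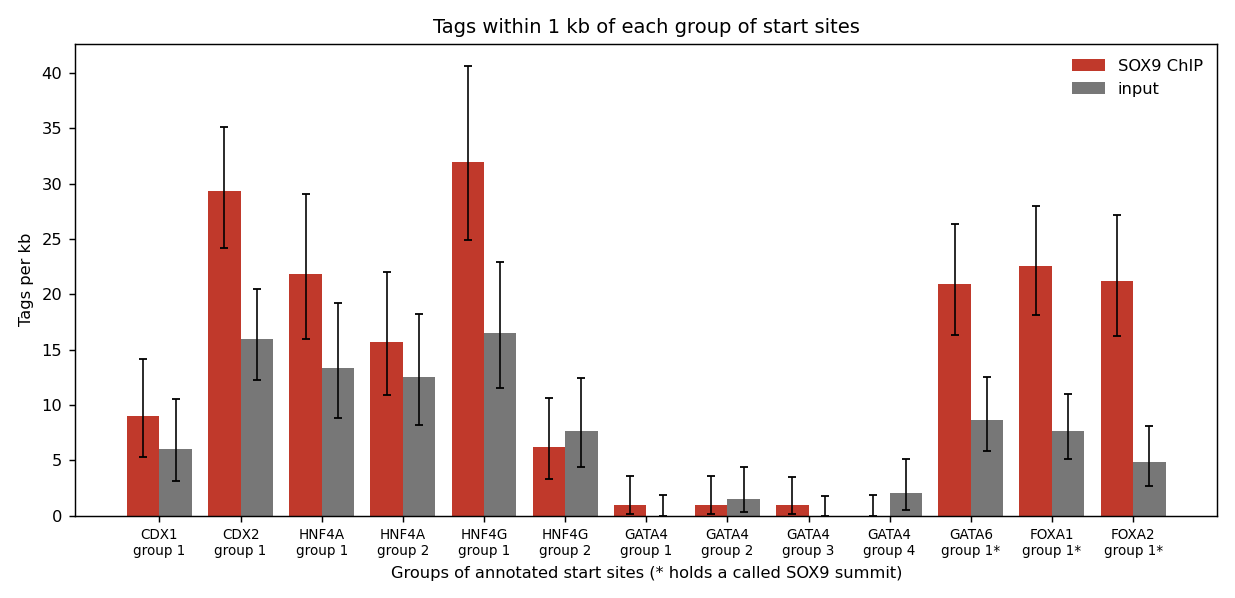
Tags per kb within 1 kb of each group of annotated start sites, for the SOX9 ChIP (red bars) and the input (grey bars), with exact 95% Poisson intervals as error bars. Asterisks mark groups with a called summit; these have 4.85 to 8.67 input tags per kb. Among the groups without a summit, CDX2, HNF4A and the first HNF4G group have 12.5 to 16.5, and CDX1, the second HNF4G group and GATA4 have 0 to 7.62.

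GATA4, the GATA factor of the proximal gut, had almost no tags at its start sites (GATA4, chr8:11534468-11617511, plus strand). Its 4 start groups had 2, 2, 2 and 0 SOX9 tags and 0, 3, 0 and 4 input tags. The counts of 0 input tags allow up to 1.84 and 1.78 tags per kb by the upper 95% Poisson limit. The input in the 1 Mb around GATA4 was 0.323 times the autosomal median, and 97.3% of the windows were higher. With so few tags in both libraries, a small difference between ChIP and input was not detectable at the GATA4 start sites. The only summit in the GATA4 window lay 42545 bp past the gene, 96 bp upstream of the TSS of FDFT1. This peak had 71 SOX9 tags against 7 input tags and a signal of 57 in the ChIP and 3 in the input. Its fold enrichment of 42.06 was the highest of the 22 peaks, and 1.51% of all peaks were higher. This peak lay in the same low-input region, but whether a peak could have been called at the GATA4 start sites was not tested.

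The 22 peaks were set beside all SOX9 peaks. Tags ran from 17 to 221 with a median of 50, beside 45 over all peaks. For the 16 summits nearest to one of the 8 genes the median was 35.5, which turns the direction. Fold enrichment ran from 6.77 to 42.06 with a median of 11.18, beside 10.39. The highest SOX9 signal had a median of 22 beside 20, and the input signal 5.5 beside 5. Peak widths ran from 476 to 2413 bp with a median of 808.5 bp, beside 793 bp. Tags and fold enrichment ordered the genes differently: all 6 GATA6 peaks lay below the median tags but 4 of them above the median fold, whereas 3 of the 4 peaks nearest to CDX2 lay above the median tags and 1 above the median fold.

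**Figure D3:**
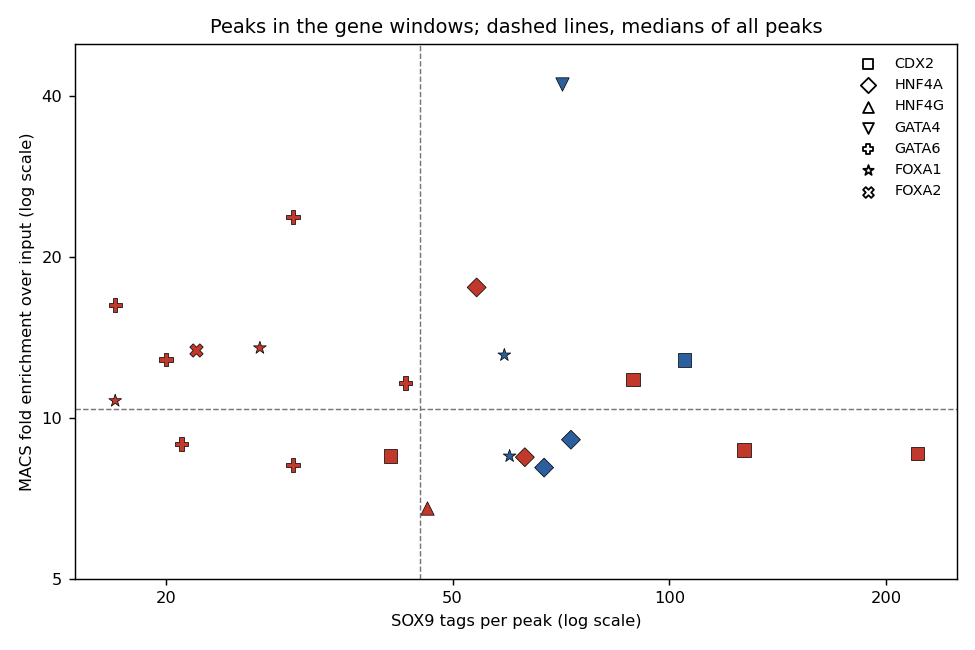
MACS fold enrichment against SOX9 tags for the 22 peaks, both on log axes, with a symbol for each gene. Red marks peaks whose nearest protein-coding gene is the gene shown, blue marks the others, and dashed lines mark the medians of all peaks, 45 tags and a fold of 10.39; 4 of the 5 CDX2 peaks lie to the right of the tag median and all 6 GATA6 peaks to the left.

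Both strands within 100 bp of each summit were searched for motifs. CCAAT was found at 7 of the 22 summits, beside 26.4% of all peaks, and the SOX9 consensus at 7, beside 20.5%. GATAA, the core bound by GATA factors, was found at 8 (19.9% of all peaks), a FOXA core (TGTTTAC or TGTTTGC) at 4 (9.21%) and a CDX core (TTTATGG or TTTACGG) at 1 (3.42%). An HNF4 core (CAAAGTC) and the inverted repeat of the SOX9 consensus with a 4 bp spacer and at most 2 mismatches were found at 0 of 22, beside 2.86% and 3.57% of all peaks. These shares depended on position. The SOX9 consensus was found at 7.68% of peaks within 1 kb of a protein-coding TSS and at 32.7% of the others. For GATAA the shares were 7.49% and 31.6%, for a FOXA core 3.41% and 14.7%, and for CCAAT 30.7% and 22.5%. The 22 summits mix both positions, so the share of all peaks is not a matched background. The FOXA and HNF4 cores can share bases with the consensus, and the FOXA core did so at the CDX2 intronic and inner FOXA1 summits. Of the 22 summits, 8 held none of these motifs. GC content within 100 bp ran from 31.8% at the HNF4G intronic peak to 74.6% at the TTPAL promoter. A match describes the letters only.

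Peaks near genes of other gut factors were counted for comparison. Of 40 such genes, 19 had a promoter peak, made up of 16 of 25 intestinal epithelial factors, 2 of 6 paralogs of the 8 genes, and 1 of 9 factors of foregut and other endoderm, against the 44.8% of all protein-coding genes. The paralogs with a peak were GATA2, a haematopoietic GATA factor, with 280 tags at a fold enrichment of 23.81, and FOXA3 with 89 tags, both above the 43 tags of the GATA6 promoter. Among intestinal factors, KLF5 had 174 tags at a fold of 30.52, VDR 139 at 34.38 and ELF3 114 at 12.41. TBX3, with 57 tags, was the only foregut or other endoderm factor with a promoter peak. The PDX1 promoter peak, counted here among the intestinal factors, is peak 5 of the CDX2 window.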

How the data were processed

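Per the methods and labels, the authors aligned 50-nt single reads of the SOX9 ChIP and input to hg19 with BWA, kept unique alignments without duplicates, thinned the input to the ChIP and called peaks with MACS (p cut-off 1e-07). The deposited table gives per peak the tag count, the fold enrichment (a ratio to the local input), a score of −log10 p times 10 and an FDR in percent. The deposited maps give the signal as extended tags per bin. Each bin map was summed and divided by 5, the bins per tag, to count tags.

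Summits were placed on GENCODE release 44 for hg19. The canonical TSS is that of the tagged Ensembl transcript, and start groups are TSSs over 2 kb apart. All 8 genes with every summit are named, and up to 4 per list of other factors with the most tags at the promoter. One of the other factors so chosen and 1 summit sequence are not reported here. The members and lists were chosen with earlier results of these data known. Procedures were tested on simulated data. Alternatives covered the reach, the summit definition, the score, the pseudocount and the motif window. Computation used pysam 0.24.0, pandas 2.3.3, SciPy 1.17.1 and NumPy 2.4.6 under Python 3.11.15, and figures matplotlib 3.10.9.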

Additional observations from a re-analysis of the deposited data

How the results depend on the processing

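With 1 library per condition, no replicate could be left out. No paired analysis was possible because each condition had 1 library and no result came from a test. The count of genes with a promoter peak was 3 to 4 of 8 over 7 settings, CDX2 being added when the reach was 3 kb or when an overlap of the peak interval sufficed. The share over all protein-coding genes ran from 35.9% to 47.5%, and the share of the 8 genes lay above it with a score of at least 100 (3 of 8 beside 35.9%), with 3 kb (4 of 8 beside 47.5%) and with interval overlap (4 of 8 beside 45.6%), and below it in the other 4 settings. The number of summits in the windows fell from 22 to 14 with 10 kb around the gene. The median per gene over all protein-coding genes fell from 2 to 1 with the same change. The SOX9 consensus was found at 3 summits within 50 bp and at 12 within the whole interval, and CCAAT at 4 and 18, beside 12.4% and 50.1% and beside 17.1% and 60.7% of all peaks. The median tags were 35.5, 0.789 times those of all peaks, when only summits nearest to one of the 8 genes were kept, an alternative chosen after seeing the data, so the direction against all peaks depends on that choice. The median promoter signal ratio of the 8 genes (mean signal plus 1) was 1.54, the same as over all protein-coding genes. It was 2.19 beside 1.90 with a pseudocount of 0.1, and 1.57 beside 1.78 within 0.5 kb, so its side of the general median changed with the setting. Depth limits GATA4 most, where 2 SOX9 tags were counted within 1 kb of the canonical TSS.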
